A study of Mus musculus with 9 samples.

Results

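The Slc25 family makes up most of the solute carriers of the mitochondrial inner membrane, and its members were taken here as every gene whose symbol is Slc25a followed by a number. That pattern matched 47 of the 24393 counted genes, in both the count table and the FPKM table, and 36 of the 47 passed the filter on low counts that left 12501 genes for testing. No measured value entered the pattern, but the family was taken up with earlier results of the same knockout comparison known. Counts over the members are therefore descriptions, and no test was made over the family as a whole.

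The libraries came from islets of female mice, kept overnight in culture before RNA extraction. The 4 knockout (KO) libraries carried the genotype Rip-cre; Ogt f/f, in which an insulin promoter drives Cre recombinase and so deletes floxed Ogt, the gene of O-GlcNAc transferase, in beta cells. The 5 wild-type (WT) libraries carried no Cre and were Ogt f/+ in WT replicates 1 and 3 and Ogt f/f in WT replicates 2, 4 and 5, so floxed Ogt was present in every library. Run 1 held KO replicates 1 and 2 and WT replicates 1 to 3, and the later pool, called both run 3 and the 2nd run in the labels and run 3 here, held KO replicates 3 and 4 and WT replicates 4 and 5. Replicate numbers are not in the labels and serve here only as names. The ages of the mice, and whether each library came from a separate animal, are not stated by the labels. P-values therefore reflect only how far these libraries spread, and that spread may be technical.

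Ogt averaged 29.5 ± 7.34 CPM (counts scaled to a common library size) in KO (SD, n = 4) and 71.1 ± 11.9 CPM in WT (SD, n = 5). All beta, alpha, delta and pancreatic polypeptide cell markers examined had counts. Total counts lay between 3790984 and 6064578 per library, and members of the family took 0.128% to 0.152% of them in KO and 0.135% to 0.164% in WT. These totals include the ribosomal RNA gene Rn45s, at 11.9% to 19.5% in KO and 9.64% to 28.6% in WT. Its share was highest in WT replicates 2 and 5 (28.6% and 24.3%), so the family's share of the totals depends partly on it. A fit without Rn45s also called 10 members. Acinar markers, which come from exocrine tissue left on islets, had counts for all 18 listed genes found in the table and summed to 126 to 2350 CPM in KO and 180 to 6848 CPM in WT. In run 1 the sums were 502 to 2350 CPM in KO and 2745 to 6848 CPM in WT, and in run 3 they were 126 to 300 CPM in KO and 180 to 187 CPM in WT. Of 14 tested acinar markers 3 were called lower in KO and 0 higher. Their median log2 fold change was −1.14, with −1.81 within run 1 and 0.16 within run 3. Of 10 beta cell markers 5 were called lower in KO and 0 higher, against 2 higher of 6 tested delta and pancreatic polypeptide cell markers and 1 higher of 7 alpha cell markers. Within runs 1 and 3 the medians were −0.43 and −0.54 for beta cell markers and 0.51 and 0.39 for delta and pancreatic polypeptide cell markers. For alpha cell markers they differed in sign, at 0.47 and −0.31. Of 6 tested fibroblast and stellate cell markers 1 was called higher (Pdgfrb) and 5 were not, with a median log2 fold change of 0.57 and sums of 181 to 849 CPM in KO and 85.8 to 696 CPM in WT. Of the markers of other cells, 0 of 7 endothelial, 1 of 7 macrophage (higher) and 0 of 5 duct markers were called. The endothelial median was 0.29 within run 1 and −0.30 within run 3. Over all tested genes, 8.96% were called lower and 9.56% higher. The part of these cell markers in the results below was not tested, apart from the fits with the acinar level as a covariate and within each run.

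Carriers of this family move nucleotides, phosphate, keto acids, amino acids and cofactors across the inner membrane, which is otherwise closed to them. In beta cells they connect glucose metabolism in the cytosol to the respiratory chain, because ADP, phosphate and reducing equivalents must enter the matrix and ATP must leave it before the ATP-sensitive potassium channel can respond to glucose. The aspartate/glutamate carrier and the oxoglutarate carrier form the malate-aspartate shuttle, and the citrate carrier feeds cytosolic acetyl-CoA and NADPH production.

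Stretches before the RefSeq starts are shown for 4 members picked by their place in the results below. Whether a motif bears on a fold change was not tested. Slc25a4 and Slc25a5 encode the main adenine nucleotide translocases and stood on opposite sides of 0 in the comparison, Slc25a3 supplies phosphate to the same reaction, and Slc25a1 was the only member called higher in KO. Each line gives the 250 bases before the RefSeq start in GRCm38.p6, read 5′ to 3′ on the gene's strand, at chr8:46211063-46211312 (minus strand) for Slc25a4, chr10:91123968-91124217 (minus strand) for Slc25a3, chrX:36795347-36795596 (plus strand) for Slc25a5 and chr16:17928220-17928469 (minus strand) for Slc25a1. In the GENCODE annotation the gene starts at 46211284 for Slc25a4 and at 91124059 for Slc25a3. Part of each of these stretches therefore lies within the annotated gene. Capitals mark matches on either strand to any of 7 motifs.
Slc25a4: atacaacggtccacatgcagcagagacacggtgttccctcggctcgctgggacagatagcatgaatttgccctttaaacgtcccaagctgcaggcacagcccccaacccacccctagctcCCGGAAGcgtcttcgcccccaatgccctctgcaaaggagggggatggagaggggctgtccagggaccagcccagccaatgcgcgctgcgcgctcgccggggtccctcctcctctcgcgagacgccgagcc
Slc25a3: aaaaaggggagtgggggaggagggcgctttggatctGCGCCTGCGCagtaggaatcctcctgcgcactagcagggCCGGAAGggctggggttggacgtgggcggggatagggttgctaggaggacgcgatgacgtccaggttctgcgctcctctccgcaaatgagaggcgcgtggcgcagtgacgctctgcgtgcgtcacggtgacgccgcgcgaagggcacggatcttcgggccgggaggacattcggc
Slc25a5: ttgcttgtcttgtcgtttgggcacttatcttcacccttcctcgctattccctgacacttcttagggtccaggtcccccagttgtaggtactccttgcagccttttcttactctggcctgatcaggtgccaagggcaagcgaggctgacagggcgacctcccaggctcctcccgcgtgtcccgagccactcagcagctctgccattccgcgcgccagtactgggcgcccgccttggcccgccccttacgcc
Slc25a1: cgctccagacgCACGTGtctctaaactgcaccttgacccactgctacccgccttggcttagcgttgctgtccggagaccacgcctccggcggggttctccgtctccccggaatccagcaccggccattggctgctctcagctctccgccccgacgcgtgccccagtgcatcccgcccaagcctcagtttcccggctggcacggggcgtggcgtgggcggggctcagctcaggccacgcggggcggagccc

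The motifs were NRF1, ETS (CCGGAAG), CRE (TGACGTCA), E-box (CACGTG), SRE (TCACNCCAC), ERR (TNAAGGTCA) and the ATF4 and C/EBP composite (TGATGNAA), where N is any base. The stretch of Slc25a4 held only an ETS motif, which lies within its annotated gene. That of Slc25a3 held an NRF1 and an ETS motif, that of Slc25a1 an E-box, and that of Slc25a5 none of the 7. Among the 32851 RefSeq promoters, of which 36 members had at least 1, ETS was found in 6.91%, NRF1 in 3.74% and the E-box in 6.02%. Of the 8 members called lower that had a promoter entry, 3 held an ETS motif (Slc25a3, Slc25a4 and Slc25a17), 2 an E-box (Slc25a15 and Slc25a36), 1 an NRF1 motif (Slc25a3) and 1 a CRE (Slc25a36), a motif in 1.55% of all promoters. Among all 27 tested members with an entry, 5 held an ETS motif, Slc25a20 and Slc25a38 being the 2 not called, 6 an E-box, of which Slc25a13, Slc25a14 and Slc25a33 were not called, 2 a CRE and 1 an NRF1 motif. SRE, ERR and the composite motif had no match before the RefSeq starts of the 27 tested members with an entry. They were found in 1.05%, 1.14% and 3.45% of all promoters. Members are counted by gene, with a match in any promoter of the gene. The percentages are by promoter, over 27025 genes whether tested or not, so counts and percentages are not on the same scale. These are matches of letters and not measured binding sites.

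Levels are compared between genes in FPKM, the authors' values per length of transcript. Slc25a4 was the most abundant member at a mean of 186 FPKM over all libraries, followed by Slc25a3 at 97.4, Slc25a5 at 96.3, Slc25a39 at 74.3, Slc25a1 at 38.8 and Slc25a44 at 27.1 FPKM. Slc25a5 was above Slc25a3 in every KO library and below it in every WT library. Slc25a3 was at 81.3 to 90.7 FPKM in KO and 100.2 to 111 FPKM in WT, and Slc25a5 at 87.2 to 122 FPKM in KO and 72.8 to 98.9 FPKM in WT. The 6 members together held 68.9% ± 2.14 of the summed FPKM of the family in KO (SD, n = 4) and 69.1% ± 1.83 in WT (SD, n = 5), a difference smaller than the spread between libraries. At the lower end of the tested members, Slc25a27, a carrier of the uncoupling protein branch, averaged 0.775 FPKM.

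**Figure D1:**
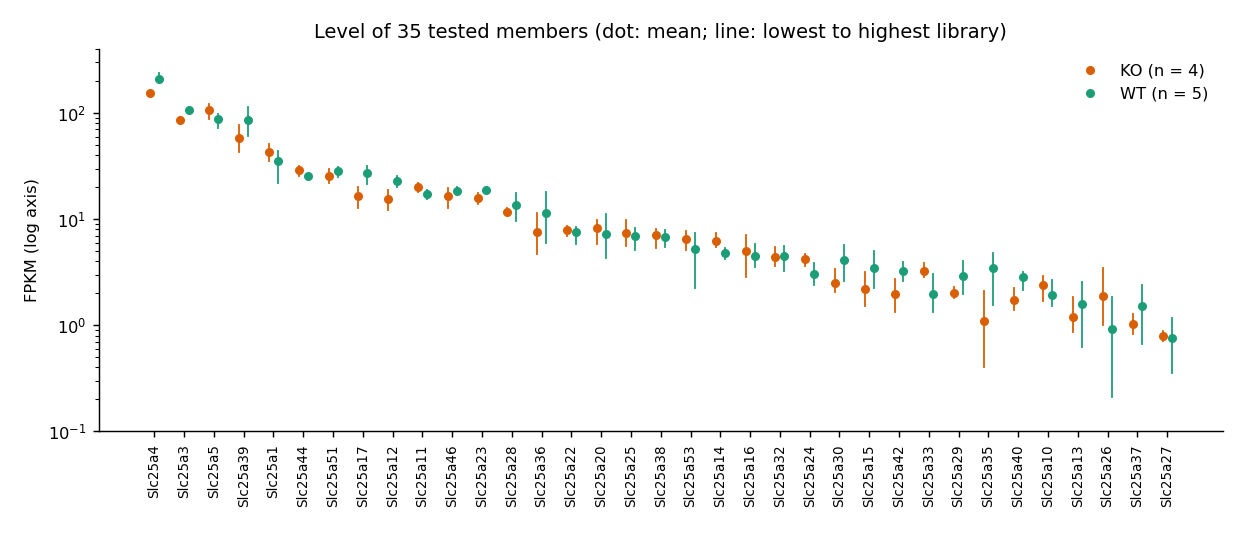
Mean FPKM (log axis) of 35 of the 36 tested members in KO (n = 4) and WT (n = 5) islets, ordered by their mean over all libraries, with lines from the lowest to the highest library. Slc25a4 stands highest in both genotypes, and means over all libraries run from its 186 FPKM down to 0.775 FPKM for Slc25a27.

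The other 11 members did not pass the filter. They were Slc25a2, Slc25a18, Slc25a21, Slc25a31, Slc25a34, Slc25a41, Slc25a43, Slc25a45, Slc25a47, Slc25a48 and Slc25a54, with 6 to 45 counts summed over the 9 libraries and at most 13 counts in any library. Slc25a2 encodes a second ornithine carrier, Slc25a18 a second glutamate carrier, Slc25a21 the oxoadipate carrier and Slc25a31 the translocase typical of testis. Slc25a48 was listed at 0 FPKM in every library although it had 14 counts, and the highest FPKM of any of the 11 was 1.34. They entered the fit without a filter, in which 10 of 47 members were called, as with the filter. No fold change is given for them, since 3 counts, the upper limit that a count of 0 allows, correspond to 0.44 to 0.756 CPM in KO libraries and 0.452 to 0.972 CPM in WT libraries. These limits cover counting error only.

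Libraries with beta cell deletion of Ogt were set against the controls in a model that also held the sequencing run. Every KO library and no WT library carried Rip-cre, so effects of Cre and of Ogt loss cannot be told apart. Of the 36 tested members, 9 were called lower in KO, 1 was called higher and 26 were not called, at an adjusted p under 0.05 in edgeR's quasi-likelihood test with Benjamini-Hochberg adjustment over all 12501 genes. Over all tested genes, 8.96% were called lower and 9.56% higher, 18.5% in all. The median log2 fold change was −0.16 over the 36 members and 0.02 over all tested genes, and 21 members were below 0 and 15 above. In each run, every KO library lay below every WT library for 13 members and above every WT library for 3, 16 in all, against 11.0%, 11.9% and 22.9% of all tested genes. In bulk islets, fewer cells of a type and less RNA per cell cannot be told apart, and non-beta cells keep intact Ogt.

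**Figure D2:**
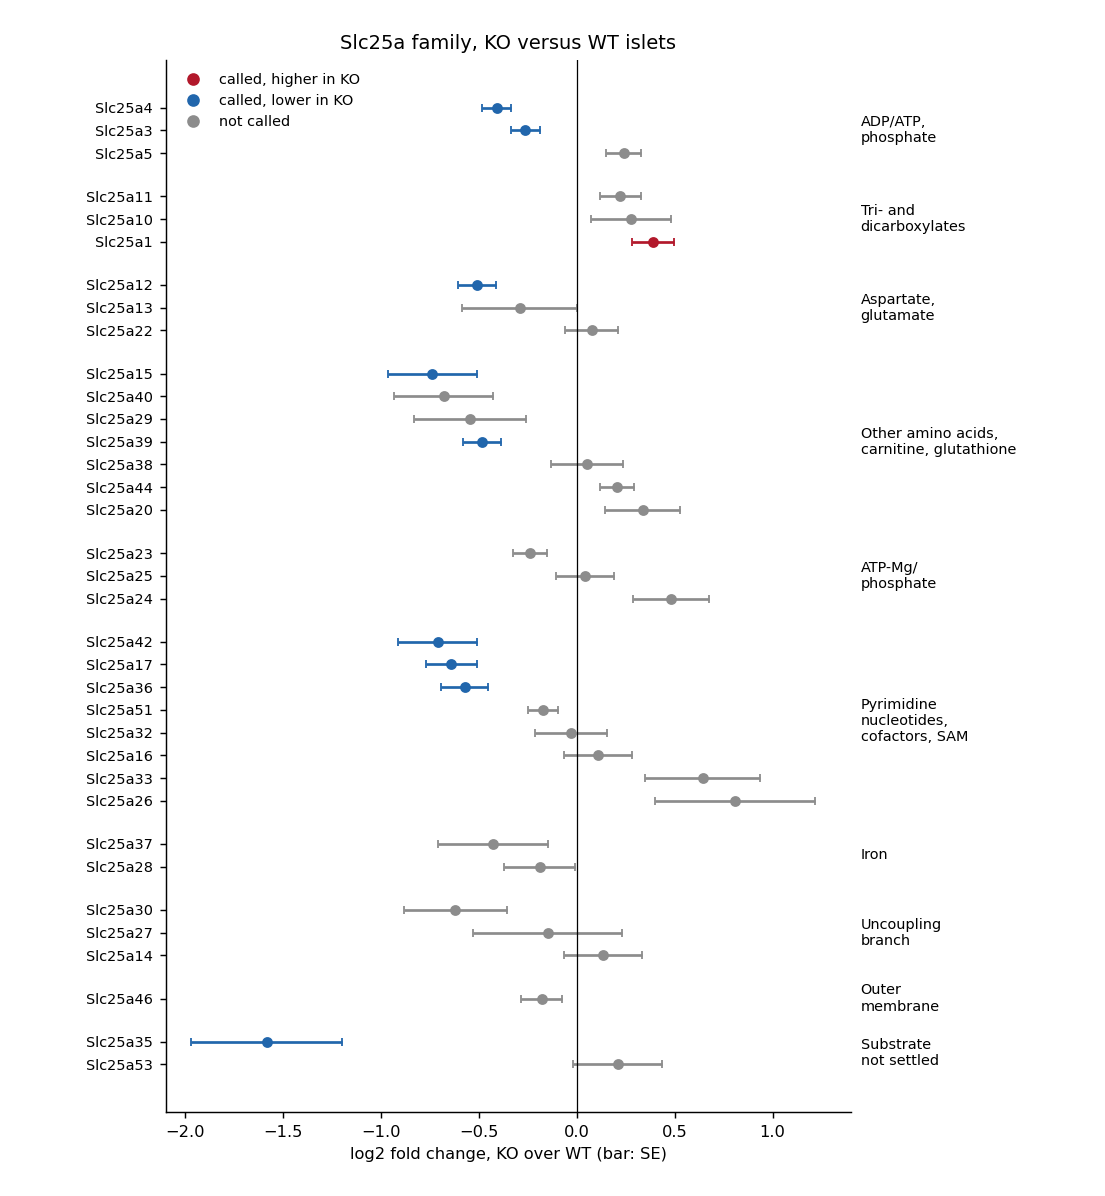
Log2 fold change (KO over WT) with its SE for 35 of the 36 tested members, grouped by what they carry. The 9 members called lower run from −0.26 (Slc25a3) to −1.58 (Slc25a35), and Slc25a1 at 0.39 is the only member called higher.

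Among the carriers that supply ATP synthesis, Slc25a4 and Slc25a3 fell in KO, while Slc25a5 had a positive log2 fold change that was not called. Slc25a4, on chromosome 8 from 46206797 to 46211284 (minus strand, GRCm38), encodes ANT1, the translocase that exchanges ATP for ADP in non-dividing tissues. It stood at 187, 183, 167 and 160 CPM in KO replicates 1 to 4, against 278, 251, 233, 205 and 214 CPM in WT replicates 1 to 5. Every KO library lay below every WT library. This gave −0.41 ± 0.08 on the log2 scale (SE; edgeR adjusted p = 0.00161). Slc25a3, on chromosome 10 from 91116574 to 91124059 (minus strand), encodes the carrier that brings phosphate, and also copper, into the matrix. It stood at 146, 134, 120 and 117 CPM in KO replicates 1 to 4, against 174, 164, 165, 136 and 148 CPM in WT replicates 1 to 5. The groups overlapped over both runs together but not within either run. The log2 fold change of Slc25a3 was −0.26 ± 0.07 (SE; edgeR adjusted p = 0.0198), the smallest of the called members, and its call was lost without KO replicate 2 (−0.24) and in 9 other alternatives of 25. Slc25a3 also overlaps a small nucleolar RNA gene on its own strand, whose reads may be counted with it.

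Slc25a5, on chromosome X from 36795651 to 36798807 (plus strand), encodes ANT2, the translocase typical of growing cells. It stood at 169, 140, 121 and 135 CPM in KO replicates 1 to 4, against 148, 131, 115, 107 and 109 CPM in WT replicates 1 to 5. The groups overlapped in run 1 and were separate in run 3. On the log2 scale the difference was 0.24 ± 0.09 (SE; edgeR adjusted p = 0.0731), and Slc25a5 was called without WT replicate 1 (0.29, adjusted p = 0.0427). A processed pseudogene of Slc25a5 is annotated on chromosome 14, and the sources used here do not say how reads that match both were counted. Slc25a4 made up 59.0%, 63.9%, 58.9% and 55.4% of the summed FPKM of Slc25a4 and Slc25a5 in KO replicates 1 to 4, against 72.3%, 72.2%, 72.8%, 67.9% and 67.7% in WT replicates 1 to 5. The groups did not overlap, with a mean of 59.3% ± 3.47 in KO (SD, n = 4) and 70.6% ± 2.57 in WT (SD, n = 5). The family was taken up with these values in view, so the share is given as a description with no p-value. The summed FPKM of Slc25a4, Slc25a5, Slc25a3 and the near-absent Slc25a31 was 348 ± 14.3 in KO (SD, n = 4) and 404 ± 24.0 in WT (SD, n = 5).

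**Figure D3:**
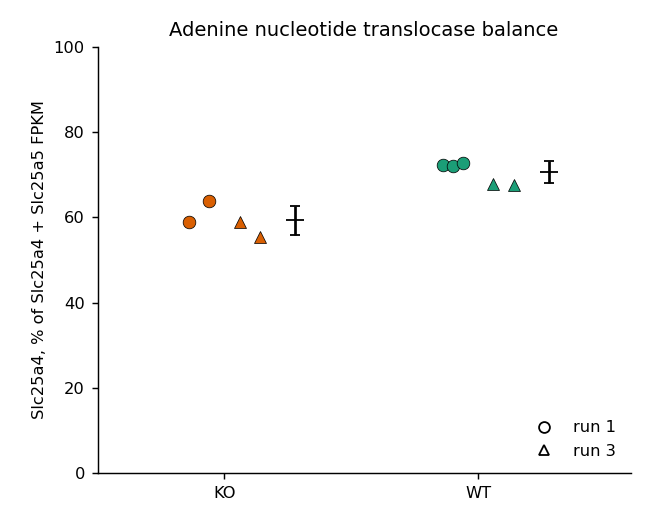
Share of Slc25a4 in the summed FPKM of Slc25a4 and Slc25a5 (percent) per library, with the mean and SD at the right of each group, circles for run 1 and triangles for run 3. The 4 KO libraries lie between 55.4% and 63.9% and the 5 WT libraries between 67.7% and 72.8%.

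The tricarboxylate and dicarboxylate carriers had 3 tested members of 4, of which 1 rose and 2 were not called. Slc25a1, on chromosome 16 from 17925223 to 17928219 (minus strand), encodes the carrier that exports citrate to the cytosol for acetyl-CoA supply. It stood at 87.4, 74.7, 62.0 and 70.7 CPM in KO replicates 1 to 4, against 71.6, 73.8, 65.1, 48.3 and 39.2 CPM in WT replicates 1 to 5. KO libraries lay above WT libraries within each run, narrowly in run 1, and the groups overlapped across runs. The log2 fold change was 0.39 ± 0.11 (SE; edgeR adjusted p = 0.0205), with 0.19 in run 1 alone (adjusted p = 0.402) against 0.59 in run 3 alone (adjusted p = 0.0172). The call of Slc25a1 was lost without KO replicate 1 (0.39), KO replicate 4 (0.32) or WT replicate 5 (0.29), without both WT replicates 2 and 5 (0.31), and on FPKM values. Slc25a11, the oxoglutarate carrier of the malate-aspartate shuttle, had a log2 fold change of 0.22 ± 0.10 (SE; edgeR adjusted p = 0.152), with KO above WT in each run. It shares its locus with Rnf167 on the opposite strand, at 52.5 ± 7.91 CPM in KO (SD, n = 4) and 49.5 ± 10.0 CPM in WT (SD, n = 5), and the sources used here do not say whether counting used the strand. Slc25a10, the dicarboxylate carrier, had a log2 fold change of 0.28 ± 0.21 (SE; edgeR adjusted p = 0.381).

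Of the 4 aspartate and glutamate carriers, 3 were tested, 1 fell and 2 were not called. Slc25a12, on chromosome 2 from 71271063 to 71367749 (minus strand), encodes aralar, the calcium-activated aspartate/glutamate carrier found in brain, muscle and islets. It stood at 62.0, 50.6, 37.2 and 45.9 CPM in KO replicates 1 to 4, against 75.5, 81.9, 74.8, 64.3 and 59.1 CPM in WT replicates 1 to 5. KO libraries lay below WT libraries in each run, and over both runs only KO replicate 1 reached the WT range. For Slc25a12 the log2 fold change was −0.51 ± 0.10 (SE; edgeR adjusted p = 0.00236). Slc25a13, the paralog citrin that predominates in liver, was at 4.53 ± 1.37 CPM in KO (SD, n = 4) and 5.80 ± 1.51 CPM in WT (SD, n = 5), and differed by −0.29 ± 0.29 on the log2 scale (SE; edgeR adjusted p = 0.535). Slc25a12 held 92.7% ± 2.51 of the summed FPKM of the pair in KO (SD, n = 4) and 93.7% ± 2.2 in WT (SD, n = 5), a difference smaller than the spread. Slc25a22, the glutamate carrier GC1, stood at 21.7 ± 2.21 CPM in KO and 20.8 ± 3.22 CPM in WT (SD, n = 4 and 5), a log2 difference of 0.08 ± 0.14 (SE).

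Of the 8 carriers of other amino acids, carnitine and glutathione, 7 were tested, 2 fell and 5 were not called. Slc25a39, on chromosome 11 from 102402985 to 102407946 (minus strand), encodes a carrier that brings glutathione into mitochondria. It stood at 132, 112, 75.8 and 76.2 CPM in KO replicates 1 to 4, against 181, 197, 145, 113 and 93.9 CPM in WT replicates 1 to 5. Both genotypes were lower in run 3, and KO lay below WT within each run. For Slc25a39 the log2 fold change was −0.48 ± 0.10 (SE; edgeR adjusted p = 0.00326). Its less abundant paralog Slc25a40 stood at 5.36 ± 1.46 CPM in KO (SD, n = 4) and 8.63 ± 1.39 CPM in WT (SD, n = 5), a log2 difference of −0.68 ± 0.25 (SE; edgeR adjusted p = 0.0735) and with KO below WT in each run. Slc25a40 was called on FPKM values (log2 changes of −0.72 to −0.51) and without KO replicate 3 (−0.89).

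Slc25a15, on chromosome 8 from 22375551 to 22398597 (minus strand), encodes the ornithine carrier of the urea cycle and of proline and polyamine synthesis. It stood at 7.81, 5.60, 6.31 and 12.2 CPM in KO replicates 1 to 4, against 9.28, 13.0, 8.95, 16.0 and 17.4 CPM in WT replicates 1 to 5. KO replicate 4 was within the WT range over both runs, and the groups were separate within each run. The log2 fold change was −0.74 ± 0.23 (SE; edgeR adjusted p = 0.0343), and the call was lost in 13 of 25 alternatives, among them without KO replicates 2 or 3 and without WT replicates 2, 4 or 5 (log2 fold changes of −0.93 to −0.54 over all fits without a library). The remaining 4 members of this group were Slc25a44, linked to branched-chain amino acids, at 0.21 ± 0.09 (SE; edgeR adjusted p = 0.122), Slc25a20, the carnitine/acylcarnitine carrier, at 0.34 ± 0.19, Slc25a29, a carrier of basic amino acids, at −0.55 ± 0.29, and Slc25a38, a glycine carrier, at 0.05 ± 0.18. Slc25a44 is among the 6 most abundant members and stood at 121, 95.2, 92.5 and 99.2 CPM in KO replicates 1 to 4, against 92.6, 95.5, 99.5, 74.5 and 87.5 CPM in WT replicates 1 to 5, with overlap in run 1.

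**Figure D4:**
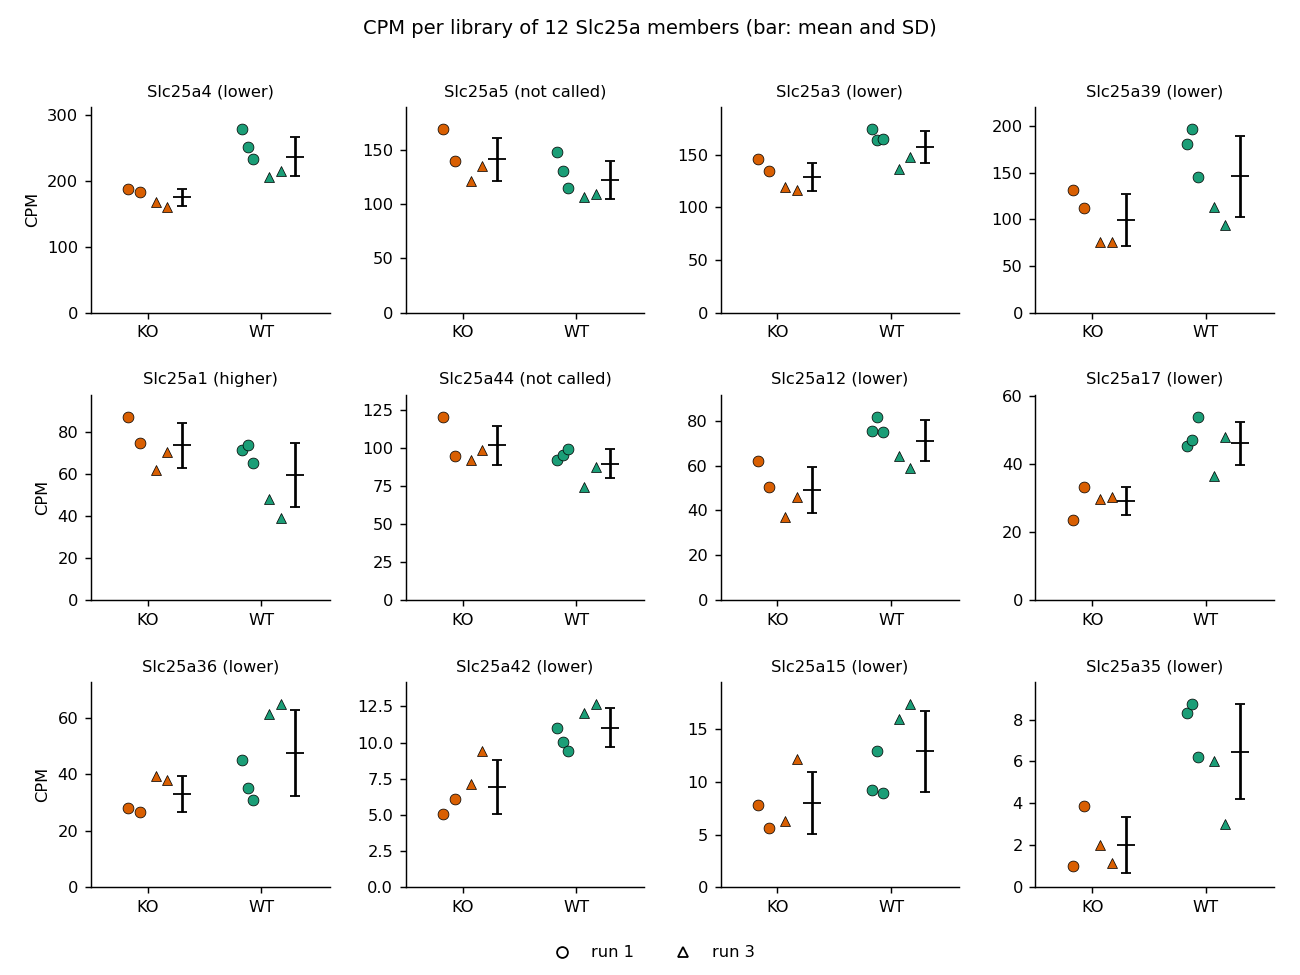
CPM per library of the 10 called members and of Slc25a5 and Slc25a44, with the mean and SD at the right of each group, circles for run 1 and triangles for run 3. For all 10 called members KO and WT are separate within each run, which their choice by a call on the same libraries favours. The same holds for 6 of the 26 members not called and for 22.9% of all tested genes. Slc25a5 and Slc25a44 overlap in run 1.

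All 9 carriers of pyrimidine nucleotides, cofactors and S-adenosylmethionine were tested, of which 3 fell and 6 were not called. Slc25a17, on chromosome 15 from 81318911 to 81360812 (minus strand), encodes a carrier of coenzyme A, FAD and NAD that sits in peroxisomes and not in mitochondria. It stood at 23.4, 33.1, 29.7 and 30.2 CPM in KO replicates 1 to 4, against 45.4, 47.0, 54.0, 36.4 and 48.0 CPM in WT replicates 1 to 5. Every KO library lay below every WT library, and the log2 fold change was −0.64 ± 0.13 (SE; edgeR adjusted p = 0.00325). Slc25a36, on chromosome 9 from 97074961 to 97111157 (minus strand), encodes a carrier of pyrimidine nucleotides. It stood at 28.2, 26.8, 39.2 and 38.0 CPM in KO replicates 1 to 4, against 45.2, 35.0, 30.8, 61.3 and 64.9 CPM in WT replicates 1 to 5. Both genotypes were higher in run 3, and KO lay below WT within each run. For Slc25a36 the log2 fold change was −0.57 ± 0.12 (SE; edgeR adjusted p = 0.00378), and an antisense gene, Gm16185, is annotated on the opposite strand. Its paralog Slc25a33, also a pyrimidine nucleotide carrier, had a log2 fold change of the other sign, 0.64 ± 0.29 (SE; edgeR adjusted p = 0.143), at 6.20 ± 0.849 CPM in KO (SD, n = 4) and 3.91 ± 1.29 CPM in WT (SD, n = 5).

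Slc25a42, on chromosome 8 from 70184340 to 70212305 (minus strand), encodes a carrier of coenzyme A. It stood at 5.04, 6.09, 7.14 and 9.39 CPM in KO replicates 1 to 4, against 11.0, 10.0, 9.45, 12.05 and 12.7 CPM in WT replicates 1 to 5. Every KO library lay below every WT library, KO replicate 4 only narrowly. The log2 fold change was −0.71 ± 0.20 (SE; edgeR adjusted p = 0.023), and the call was lost in 10 of 25 alternatives, among them without KO replicates 1 or 3 or WT replicate 1 (log2 fold changes of −0.83 to −0.64 over all fits without a library). Slc25a16, which is also linked to coenzyme A, was at 0.11 ± 0.17 (SE), and Slc25a51, the NAD carrier, at −0.17 ± 0.08 (SE; edgeR adjusted p = 0.127) with KO below WT in each run. Slc25a26, the S-adenosylmethionine carrier, was at 0.81 ± 0.41 (SE; edgeR adjusted p = 0.183) and averaged 3.90 ± 1.79 CPM in KO (SD, n = 4) and 2.04 ± 1.31 CPM in WT (SD, n = 5). Slc25a32, the folate and FAD carrier, was at −0.03 ± 0.18 (SE; edgeR adjusted p = 0.929).

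Slc25a35, on chromosome 11 from 68968131 to 68974365 (plus strand), had the largest fold change of the tested members and the fewest counts of the called ones. Its substrate is not settled, and its closest relative Slc25a34 had 6 counts in all libraries together. Slc25a35 stood at 1.01, 3.89, 1.99 and 1.17 CPM in KO replicates 1 to 4, against 8.30, 8.74, 6.22, 6.02 and 3.04 CPM in WT replicates 1 to 5. KO replicate 2 was above WT replicate 5, which belongs to the other run, and the groups were separate within each run. The log2 fold change was −1.58 ± 0.38 (SE; edgeR adjusted p = 0.0096), and it ranged from −1.96 to −1.29 with single libraries left out. The call of Slc25a35 was lost in 5 of 25 alternatives, namely without the run term, within each run alone and on 2 of the 3 FPKM settings, where the change was as small as −1.07. Rangrf overlaps it on the opposite strand, at 0.795 ± 0.351 CPM in KO (SD, n = 4) and 1.11 ± 0.632 CPM in WT (SD, n = 5), so reads of the pair cannot be told apart if strand was not used in counting. Slc25a53, the other tested member without a settled substrate, was at 0.21 ± 0.23 (SE; edgeR adjusted p = 0.566).

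The remaining groups had no called member. Of the calcium-regulated ATP-Mg/phosphate carriers, Slc25a23 was at −0.24 ± 0.09 (SE; edgeR adjusted p = 0.0673) with KO below WT in each run, Slc25a24 at 0.48 ± 0.20 (SE; edgeR adjusted p = 0.102) with KO above WT in each run, and Slc25a25 at 0.04 ± 0.15. The mitoferrins, which import iron for heme and iron-sulfur clusters, were at −0.19 ± 0.18 (Slc25a28) and −0.43 ± 0.28 (Slc25a37). Slc25a28 held most of the summed FPKM of the pair, 92.0% ± 0.992 in KO (SD, n = 4) and 89.3% ± 6.14 in WT (SD, n = 5). Members of the branch related to uncoupling proteins were at −0.62 ± 0.26 (Slc25a30), −0.15 ± 0.38 (Slc25a27) and 0.13 ± 0.20 (Slc25a14). Slc25a46, a relative in the outer membrane that acts in mitochondrial fusion and fission, was at −0.18 ± 0.10.

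The 2 runs gave the same sign for all 10 called members and for 28 of the 36 tested ones, and the choice of called members over both runs favours this. The share over all tested genes was not computed, so these counts only describe the members. The median log2 fold change over the members was −0.18 within run 1 and −0.12 within run 3, against 0.01 and −0.01 over all tested genes. Within run 1 alone 2 members were called, both lower (Slc25a4 and Slc25a17), and within run 3 alone 4 were called lower and Slc25a1 higher. Of all tested genes 6.05% were called within run 1 and 8.17% within run 3, so the members' count within run 1 was near the general share. A test of the genotype by run interaction in edgeR called 0 members and 0.0% of all genes, and 2 members had an unadjusted p under 0.05, as did 744 of all 12501 genes. These were Slc25a27, with 0.77 in run 1 and −0.92 in run 3, and Slc25a46, with −0.42 in run 1 and 0.06 in run 3. When the acinar level was added to the model, 6 of the 9 falls and the rise of Slc25a1 kept their calls, and those of Slc25a3, Slc25a15 and Slc25a42 were lost. Their log2 fold changes in that model were −0.26, −0.61 and −0.67, against −0.26, −0.74 and −0.71 without it. With f/f controls alone, which carry the same floxed alleles as the KO, the calls of Slc25a3 (−0.25) and Slc25a42 (−0.67) were lost and 7 members were called lower.

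**Figure D5:**
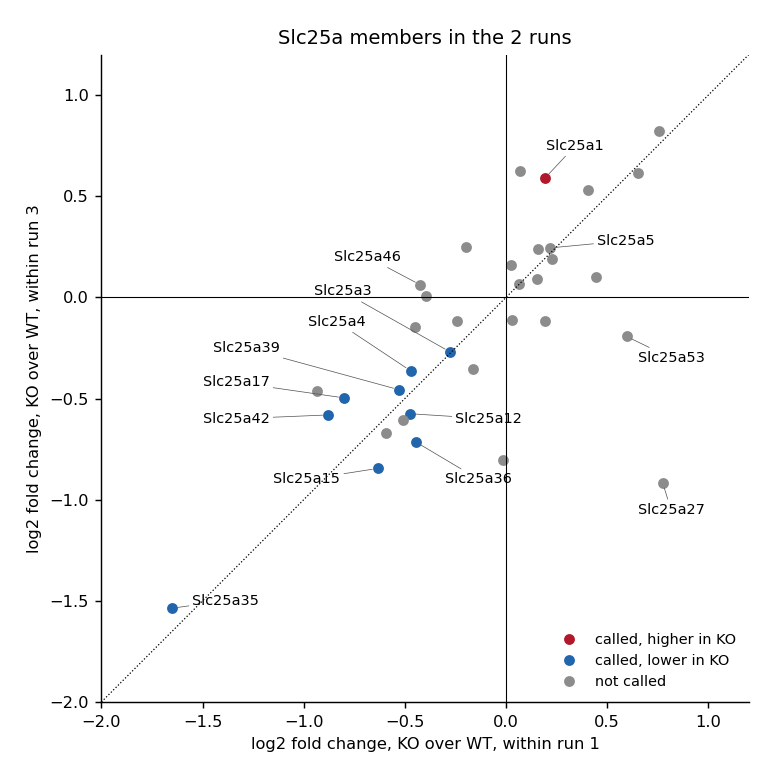
Log2 fold change (KO over WT) of 35 of the 36 tested members within run 1 (x axis) and within run 3 (y axis), with the dotted line at equality. The 9 members called lower are all below 0 in both runs and Slc25a1 is above 0 in both, while Slc25a27, Slc25a46 and Slc25a53 are among those that differ in sign between the runs.

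Levels of single members also differed between runs, a measure that the choice of the family did not use. With genotype as a term, 10 of 36 members (27.8%) were called between run 3 and run 1 in edgeR's test, 8 lower and 2 higher in run 3, and 31.4% of all tested genes were called (16.3% lower, 15.1% higher). The members' share is thus near that of all genes. Slc25a39 was lower in run 3 by a log2 fold change of −0.72 ± 0.10 (SE; edgeR adjusted p = 5.25e-05) and Slc25a1 by −0.49 ± 0.11, while Slc25a36 was higher by 0.65 ± 0.12 (SE; edgeR adjusted p = 0.000607) and Slc25a16 by 0.52 ± 0.17. The other 6 were Slc25a3, Slc25a4, Slc25a5, Slc25a12, Slc25a20 and Slc25a23, all lower in run 3 with log2 fold changes of −0.59 to −0.23. Of the 10, 6 were also called between KO and WT (Slc25a1, Slc25a3, Slc25a4, Slc25a12, Slc25a36 and Slc25a39). Between the Ogt f/f and Ogt f/+ controls, edgeR called 0 members and 0.0% of all genes, and 1 member (Slc25a25) had an unadjusted p under 0.05, as did 398 of all 12501 genes. Both Ogt f/+ controls were in run 1, where WT replicate 2 was the only Ogt f/f control. Within a run the comparison rests on that library, so the lack of calls does not show that the controls were alike.

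Other genes of the same pathways moved in both directions. For comparison with the lists below, 9.56% of all tested genes were called higher and 8.96% lower, 18.5% in all. Of the 5 relatives that belong to the SLC25 family under other symbols, 3 were tested, and Ucp2, the uncoupling protein of islets, rose to 312 ± 56.3 CPM in KO (SD, n = 4), against 177 ± 23.3 CPM in WT (SD, n = 5). On the log2 scale Ucp2 differed by 0.84 ± 0.08 (SE; edgeR adjusted p = 5.0e-06), while Mtch1 (−0.08) and Mtch2 (−0.16), outer membrane proteins, were not called. Of 18 other transporters of the inner membrane, 1 rose (Sfxn5, a sideroflexin, at 1.32), 1 fell (Tmem65, which acts in sodium-dependent calcium efflux, at −0.73) and 16 were not called, with a median of −0.06. Of 18 shuttle and cycle enzymes that use the carriers' substrates, 5 rose, 2 fell and 11 were not called, with a median of 0.17.

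In the malate-aspartate shuttle, the cytosolic transaminase Got1 fell to 19.2 ± 6.83 CPM in KO (SD, n = 4), against 41.7 ± 16.2 CPM in WT (SD, n = 5), which is −1.02 ± 0.15 on the log2 scale (SE; edgeR adjusted p = 0.000265). The mitochondrial transaminase Got2 was at 0.12 and the cytosolic malate dehydrogenase Mdh1 at −0.28 (edgeR adjusted p = 0.0536), neither called, and the mitochondrial dehydrogenase Mdh2 rose by 0.25. Got2, Mdh1, Mdh2 and Acly are named for their place beside the carriers and were chosen after their values were seen. Cpt1a, named to complete the called enzymes of the list, rose by 0.47 ± 0.11 (SE; edgeR adjusted p = 0.00859). Both enzymes of the glycerol phosphate shuttle rose, Gpd1 at 0.78 ± 0.11 (SE; edgeR adjusted p = 0.000252) and Gpd2 at 0.63 ± 0.12 (SE; edgeR adjusted p = 0.00236). Acly, which splits exported citrate, fell by 0.37, and Glud1, which acts on mitochondrial glutamate, rose by 0.43. Of 14 genes of mitochondrial protein import and the outer membrane, Tomm20 and Tomm22 of the import receptor rose, the channels Vdac1 and Vdac2 fell and 10 were not called, with a median of 0.02.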

How the data were processed

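RNA from KO (n = 4) and WT (n = 5) islets was sequenced from a stranded total RNA kit, per the labels' protocols. The deposited tables hold raw counts per gene and FPKM per gene for 9 libraries. The submitters' processing notes name FastQC, Bowtie2 2.2.4.0, Cuffdiff 2.2.1, edgeR and the build mm10. The sources used here do not say which tool made the authors' counts or whether counting used strand or multiply mapped reads.

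From the counts, 27 symbols turned into dates were left out (0.133% to 0.186% of counts). Genes were filtered with filterByExpr, scaled by TMM and tested with edgeR 4.0.16 (R 4.3.3, quasi-likelihood test, Benjamini-Hochberg adjustment over all 12501 genes, called under 0.05), with run and genotype as terms. CPM use TMM-scaled library sizes. A fold change is KO over WT. Authors' FPKM were used for levels between genes, for shares, and with limma 3.58.1 on log2(FPKM + 1) as an alternative. The 25 alternatives also covered DESeq2 1.42.0, limma-voom, other scaling and filters, libraries left out and each run alone.

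Values per library are given for called members and the 6 of highest mean FPKM, and up to 4 called genes of lowest p are named from each context list. Of the shuttle and cycle enzymes, all called ones are named, and Got2 and Mdh1 besides. Members and lists were chosen with earlier results of these data known. Chi-square per degree of freedom between libraries of a group was 3.73 to 64.2, so none was treated as a duplicate. The test was tried on simulated data for KO against WT with 12501 genes, and recovered 5, 28, 42 and 43 of 50 genes changed by 0.4, 0.6, 1 and 1.5 on the log2 scale, with 7 unchanged genes called. Gene positions are from GENCODE annotation of GRCm38, promoters from RefSeq. Values of 1 tested member are not reported here and it is not plotted, though it enters the counts and medians.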

Additional observations from a re-analysis of the deposited data

How the results depend on the processing

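Directions were the same as reported in each of the 25 alternatives for the 10 called members, and Slc25a4 stayed called in all 25 (adjusted p of 1.36e-05 to 0.0479). The 10 calls became 2 without the run term, 6 without both WT replicates 2 and 5, 2 within run 1 and 5 within run 3, where fewer libraries enter. The 9 calls of lower members became 2 without the run term, 2 within run 1 and 4 within run 3. The 1 call of a higher member became 0 without the run term, without both WT replicates 2 and 5, within run 1 and on all 3 FPKM settings. The cause of these losses was not tested. The fit without the run term and those on FPKM used all 9 libraries. With single libraries left out, 8 to 10 members were called, 7 to 9 lower and 0 to 2 higher, while 1595 to 2334 of all genes were called. The calls kept in every such fit were those of Slc25a4, Slc25a12, Slc25a17, Slc25a35, Slc25a36 and Slc25a39. Of all genes, 2315 were called, against 672 without the run term, 1423 with the acinar level in the model, 1538 when only f/f controls were used, 1488 without WT replicates 2 and 5, 1519 without KO replicate 2 and WT replicate 2, 756 and 1021 within runs 1 and 3, and 1479, 1265 and 1254 on log2(FPKM + 1), log2(FPKM + 0.1) and log2(FPKM + 1) unfiltered. Comparisons of runs, controls and interaction were refitted with RLE size factors and with the filter at 1 CPM only, and called 10 and 11, 0 and 0, and 0 and 0 members. The labels pair no KO library with a WT library, so no paired analysis was made. At this depth, members with few counts, such as Slc25a35 with 184 in all libraries, carry wide errors.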

Other observations

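Of the 47 members, 4 (Slc25a21, Slc25a41, Slc25a48 and Slc25a54) had 0 counts in all 5 libraries of run 1 and at least 1 count in all 4 libraries of run 3. The same was found for 2122 of the 24393 counted genes (8.7%), and the reverse for 0 members and 0 genes. Run 3 libraries had 20069 to 21067 genes with a count and run 1 libraries 14485 to 15136.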
